A study of Mus musculus with 9 samples.

Results

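Chromatin of brain endothelial cells (ECs) from old EC-K4KO mice was compared with that from young WT Cre mice, the pair of groups that differ both in age and in endothelial Klf4. The comparison uses 4 of the 9 Omni-ATAC-seq libraries, old EC-K4KO replicates 1 and 2 and young WT Cre replicates 1 and 2. All the mice carried Cre under the VE-cadherin promoter (labelled CdH5CRE), which is tamoxifen inducible and acts in ECs, and by the study's methods the controls received tamoxifen as well. The EC-K4KO mice (labelled ECK4KO) carried floxed Klf4 in addition, and both sexes were used. The labels give age only as young or old, the tissue as mouse brain and the cells as brain ECs, which the study sorted live by flow cytometry before nuclei were treated with Tn5. The remaining 5 libraries, young EC-K4KO replicates 1 to 3 and old WT Cre replicates 1 and 2, each differ from young WT Cre in age or in Klf4 alone and are called here the single-change libraries. Young and old libraries carry different prefixes in their names, and no prefix spans both ages. The labels do not say what the prefixes mark, so age and whatever they mark cannot be told apart.

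Every library came with a separate peak list, peaks being stretches where Tn5 cut more often than the surrounding genome. Lists were compared whole, and also at equal length, each cut to the peaks with the highest -log10 p until it was as long as the shortest list, that of young WT Cre replicate 1. Overlapping peaks of the 9 libraries were merged into regions. A region was called gained when both old EC-K4KO libraries and neither young WT Cre library had a peak in it, and lost in the opposite case. At equal length 1361 of 10089 regions met one of these descriptions, 837 gained and 524 lost. In the whole lists 24566 of 92495 did, 24562 gained and 4 lost. The rank of a peak is its place in its own library's whole list, with 1 for the highest -log10 p.

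KLF4 is a zinc-finger transcription factor that binds GC-rich sequence and is known in ECs for anti-inflammatory and anti-thrombotic gene control. Opening of chromatin lets such factors reach promoters and distal enhancers, and Tn5 enters open DNA more readily than DNA wrapped on nucleosomes. Brain ECs form the blood-brain barrier, and SOX, ETS, Wnt-dependent and Notch-dependent factors are known to shape their identity and barrier program.

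The sequences below, from GRCm38 and written on the plus strand, show the regions that carry the comparison. Each is 200 bp about the middle of the highest-ranked peak in its region unless stated. The central 300 bp used for motif shares below were placed about the same point. Capitals mark matches on either strand to the 12 short motifs searched (KLF, GGGNGTGG; ETS, CCGGAAG or CAGGAAG; AP-1, TGANTCA; CTCF, CAGNGGGC or CAGNTGGC; FOX, TGTTTAC; SOX, ACAATGG; GRE, ACANNNTGT; NFY, CCAATCA or CCAATGG; E-box, CAGCTG; MEF2, TAAAAATA; TEAD, GGAATG; NRF1, GCGCATGC). The promoters of Pgbd5 and Fkbp5 had the highest-ranked gained regions at equal length, and the Fkbp5 window holds 190 bp because its annotated untranslated bases were left out.
Pgbd5, chr8:124434485-124434684: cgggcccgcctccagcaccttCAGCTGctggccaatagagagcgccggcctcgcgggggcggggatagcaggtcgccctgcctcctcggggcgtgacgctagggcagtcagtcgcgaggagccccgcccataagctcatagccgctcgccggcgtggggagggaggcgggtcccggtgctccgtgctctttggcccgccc
Fkbp5, chr17:28486150-28486339: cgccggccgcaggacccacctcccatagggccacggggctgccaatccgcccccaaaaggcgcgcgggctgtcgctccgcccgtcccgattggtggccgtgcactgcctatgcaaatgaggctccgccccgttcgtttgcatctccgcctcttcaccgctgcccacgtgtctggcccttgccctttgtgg
The promoters of Usp9x and Lrrfip1 had the highest-ranked lost regions.
Usp9x, chrX:13071116-13071315: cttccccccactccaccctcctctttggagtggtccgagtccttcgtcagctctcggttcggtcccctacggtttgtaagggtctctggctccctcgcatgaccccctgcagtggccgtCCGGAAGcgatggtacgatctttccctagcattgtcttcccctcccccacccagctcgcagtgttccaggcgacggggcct
Lrrfip1, chr1:91052970-91053169: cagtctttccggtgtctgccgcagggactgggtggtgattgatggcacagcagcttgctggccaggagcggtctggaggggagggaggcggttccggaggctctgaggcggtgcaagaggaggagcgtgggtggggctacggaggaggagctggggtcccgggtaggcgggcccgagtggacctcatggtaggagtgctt
Plekhg1, Hmgcll1 and Mrps18a lie nearest to gained regions that no single-change library had at equal length. The Hmgcll1 and Mrps18a windows were placed to include the SOX match and were chosen after the values were seen.
Plekhg1, chr10:3696996-3697195: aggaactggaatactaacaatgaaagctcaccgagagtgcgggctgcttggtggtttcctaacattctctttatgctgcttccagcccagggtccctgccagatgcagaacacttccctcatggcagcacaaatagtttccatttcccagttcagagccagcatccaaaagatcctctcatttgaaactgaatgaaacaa
Hmgcll1, chr9:75910188-75910387: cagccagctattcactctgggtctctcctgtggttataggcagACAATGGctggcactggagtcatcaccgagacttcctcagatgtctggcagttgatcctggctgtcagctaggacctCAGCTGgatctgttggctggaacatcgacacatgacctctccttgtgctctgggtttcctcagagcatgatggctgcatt
Mrps18a, chr17:46115669-46115868: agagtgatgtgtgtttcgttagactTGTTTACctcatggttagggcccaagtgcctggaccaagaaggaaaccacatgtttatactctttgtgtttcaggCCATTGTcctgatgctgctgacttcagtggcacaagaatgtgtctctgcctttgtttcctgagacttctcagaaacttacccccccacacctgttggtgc
Alad and Eef2kmt lie nearest to the highest-ranked regions found in old EC-K4KO and in no other whole list.
Alad, chr4:62516179-62516378: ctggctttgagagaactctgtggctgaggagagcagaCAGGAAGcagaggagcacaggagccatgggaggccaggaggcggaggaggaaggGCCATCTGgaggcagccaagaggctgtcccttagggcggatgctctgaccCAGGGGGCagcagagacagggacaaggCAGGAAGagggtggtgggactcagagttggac
Eef2kmt, chr16:5254399-5254598: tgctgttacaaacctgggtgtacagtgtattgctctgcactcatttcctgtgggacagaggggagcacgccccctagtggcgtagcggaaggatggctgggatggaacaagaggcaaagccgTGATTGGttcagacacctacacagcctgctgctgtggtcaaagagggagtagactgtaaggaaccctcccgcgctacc
The region in a Ctcf exon was lost and had no equal-length peak in the single-change libraries.
Ctcf exon, Rltpr, chr8:105664303-105664502: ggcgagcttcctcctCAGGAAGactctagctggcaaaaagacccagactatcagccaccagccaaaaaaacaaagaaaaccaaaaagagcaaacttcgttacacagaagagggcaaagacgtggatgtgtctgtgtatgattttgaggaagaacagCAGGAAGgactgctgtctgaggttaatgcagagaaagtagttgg

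At the Klf4 gene itself (chr4:55527143-55532466, minus strand) every library had a peak at the 5' end. Its rank was 3588 and 2467 in young WT Cre, 911, 1155 and 1414 in young EC-K4KO, 5797 and 4166 in old WT Cre, and 3387 and 3502 in old EC-K4KO. The old EC-K4KO ranks lay within the young WT Cre range. A peak list does not measure the floxed deletion, so this is no check of the genotype. Peaks assigned to Klf4 as the nearest gene numbered 5 and 8 in young WT Cre and 25 and 21 in old EC-K4KO.

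The old EC-K4KO lists were longer, and their peaks wider, than those of young WT Cre. They held 45026 and 39079 peaks, against 9598 in young WT Cre replicate 2 and fewer in replicate 1, and covered 22.2 and 20.4 Mb against 2.46 and 3.96 Mb. The single-change lists ran from 23848 to 43893 peaks, between the other groups except that old WT Cre replicate 1 was longer than old EC-K4KO replicate 2. At equal length the median peak width was 663 and 648 bp in old EC-K4KO and 346 and 402 bp in young WT Cre, with 544 to 633 bp in the single-change libraries. The lowest -log10 p kept at equal length was 55.3 and 45.8 against 3.99 and 5.29, so a peak at the same rank was supported very differently. The read depth behind the lists is unknown.

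Of 7 measures of the lists, 6 did not overlap between the groups, among them the number of peaks (42052.5 ± 4205 against 7877.5 ± 2433, mean ± SD, n = 2 each). With 2 libraries against 2 the smallest two-sided exact permutation p is 0.33, which these measures reached (0.389 adjusted over the 7), so no measure could pass 0.05. The share of equal-length peaks at promoters was 62.6% and 62.1% in old EC-K4KO and 55.4% and 61.2% in young WT Cre, a difference of 3.99 percentage points that came mainly from young WT Cre replicate 1. Mean GC content overlapped between the groups (exact permutation p = 1).

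The old EC-K4KO replicates resembled each other more than the young WT Cre replicates did. The Jaccard index, the bases covered in both lists over the bases covered in either, was 0.781 within old EC-K4KO, 0.479 within young WT Cre and 0.385 on average between them (range 0.344 to 0.426) at equal length. In the whole lists these values were 0.629, 0.401 and 0.132. Old EC-K4KO lists were on average closer to old WT Cre (0.709 at equal length) than to young EC-K4KO (0.584). Within groups the index was higher than between them at the smallest one-sided exact permutation p that 2 against 2 libraries allow, 0.33.

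At equal length 837 regions (8.3% of 10089) were gained and 524 (5.19%) were lost. Of the gained regions, 48.1% were promoters, 24.7% intergenic and 21.3% intronic by the deposited annotation, and of the lost regions 43.5, 21.2 and 22.7%. The promoter of Pgbd5, which encodes a transposase-derived protein, held the highest-ranked gained region (chr8:124433921-124434772). It ranked 685 and 718 in old EC-K4KO, 877 and 1157 in old WT Cre, and 2402, 1643 and 2473 in young EC-K4KO, and neither young WT Cre list had a peak there. All 5 single-change libraries therefore had this peak, at lower ranks than old EC-K4KO. Leaving out a library removes a condition of the call, so it can only add regions. Without young WT Cre replicate 2 the counts were 1621 gained and 1780 lost, and without replicate 1 the lost were 1288.

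The promoter of Fkbp5, which encodes an FK506-binding co-chaperone of the glucocorticoid receptor, ranked next (chr17:28485805-28486478). Its peak ranked 1188 and 1191 in old EC-K4KO, 1881 and 1310 in old WT Cre, and 4016, 2218 and 2153 in young EC-K4KO, and was absent from both young WT Cre lists. The fold enrichment over background that the peak caller gave was 16.1 and 15.6 in old EC-K4KO and 4.77 to 14.5 in the single-change libraries. The other named gained regions lay near Alas1, which encodes the first enzyme of haem synthesis, Aacs, Dmwd, Cntrob, D10Jhu81e, Nenf, Pdlim3 and Dnajc4. Of these 10 regions only the one near Pdlim3 had a peak in a whole young WT Cre list, at rank 7232 in replicate 2, and all 10 had a whole-list peak in each single-change library.

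The lost regions were, with few exceptions, still peaks in old EC-K4KO but stood lower in its lists. The promoter of Usp9x, an X-linked deubiquitinase gene, ranked 511 and 730 in young WT Cre and 7908 and 8070 in old EC-K4KO (chrX:13070601-13072792). In young EC-K4KO it ranked 2890, 5143 and 4624, and in old WT Cre 6152 and 5838, so the 5 single-change libraries lay between. Its fold enrichment was 8.04 and 7.92 in young WT Cre and 5.92 and 6.02 in old EC-K4KO, while the peak widened from 436 and 635 bp to 1438 and 2100 bp. The same order, young WT Cre highest and old EC-K4KO lowest, held for each library at Lrrfip1 and Dleu2. At Kdm6b, which encodes a histone H3 lysine demethylase, the ranks were 1362 and 994 in young WT Cre and 7289 and 7413 in old EC-K4KO. At the promoter of Ing5, which encodes a reader of histone methylation, the ranks were 772, 143 and 121 in young EC-K4KO, 2019 and 724 in young WT Cre, 5398 and 5400 in old WT Cre, and 6408 and 6603 in old EC-K4KO. There the young groups overlapped, and all 4 old libraries stood lower than all 5 young ones. Rank and enrichment went apart at several lost regions. At Rbm3os the rank moved from 1463 and 1441 to 7862 and 7243 while the fold enrichment was 6.64 and 7.31 in young WT Cre and 9.98 and 10.8 in old EC-K4KO. At the promoter of Lamb2, a laminin gene of the basement membrane, the fold enrichment was 5.81 and 5.63 in young WT Cre and 7.56 and 7.44 in old EC-K4KO.

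**Figure D1:**
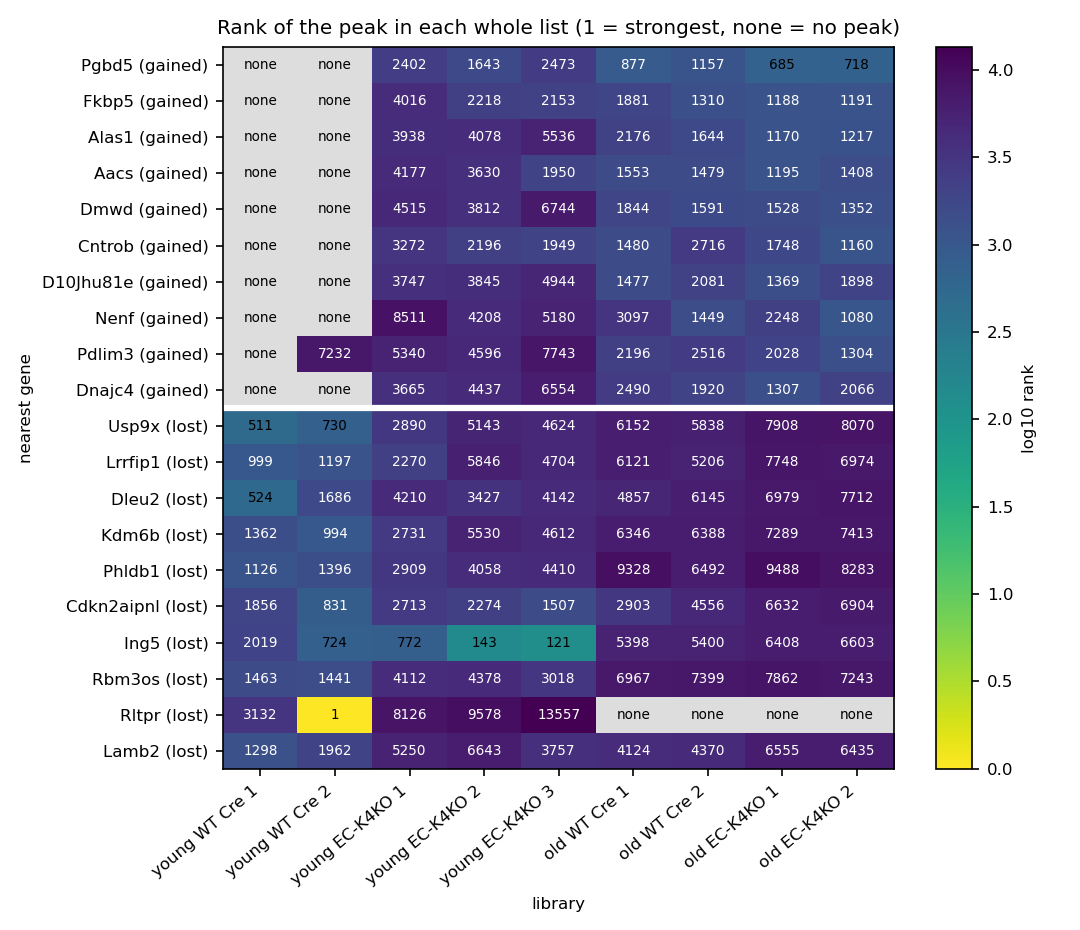
Heat map of the rank in the whole list (printed in each cell and coloured by log10 rank, 1 the highest -log10 p) of the 10 named gained and 10 named lost regions (rows, by nearest gene) in each of the 9 libraries (columns), with grey cells where a library had no peak. Old EC-K4KO stands highest at Pgbd5 (685 and 718) and lowest at Usp9x (7908 and 8070), and the single-change libraries lie between at both.

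Many members lay near the cut in both directions. The weaker of the 2 ranks that made a region gained had a median of 4881, and 379 of the 837 had it beyond 5000, and for lost regions the median was 4961, with 252 of the 524 beyond 5000. The better rank in the other group was within 8000 for 167 gained and 270 lost regions. Of the gained regions 643 had no peak in either whole young WT Cre list, and the shorter of those lists ends at the cut itself. Of the 524 lost regions 2 had no peak in either whole old EC-K4KO list. The median ranks of the lost regions in old EC-K4KO were 8353 and 8407, just past the cut.

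Most gained regions were also peaks in the single-change libraries. At equal length 175 of the 837 had a peak in all 5, 151 in 4, 160 in 3, 179 in 2 and 90 in 1, and 82 (9.80%) had none. By group, 516 (61.6%) had a peak in each of the single-change groups, 198 (23.7%) in old WT Cre alone and 41 (4.90%) in young EC-K4KO alone. For the lost regions the counts from all 5 down to 1 library were 33, 57, 139, 98 and 90, and 107 (20.4%) had none. Of the lost regions 245 (46.8%) had a peak in young EC-K4KO and not in old WT Cre, against 27 (5.15%) the other way. Young EC-K4KO has 3 libraries and old WT Cre 2, so the first had more chances to hold a peak. The promoter share of gained regions was 73.1% where all 5 had the peak and 9.76% where none had it.

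**Figure D2:**
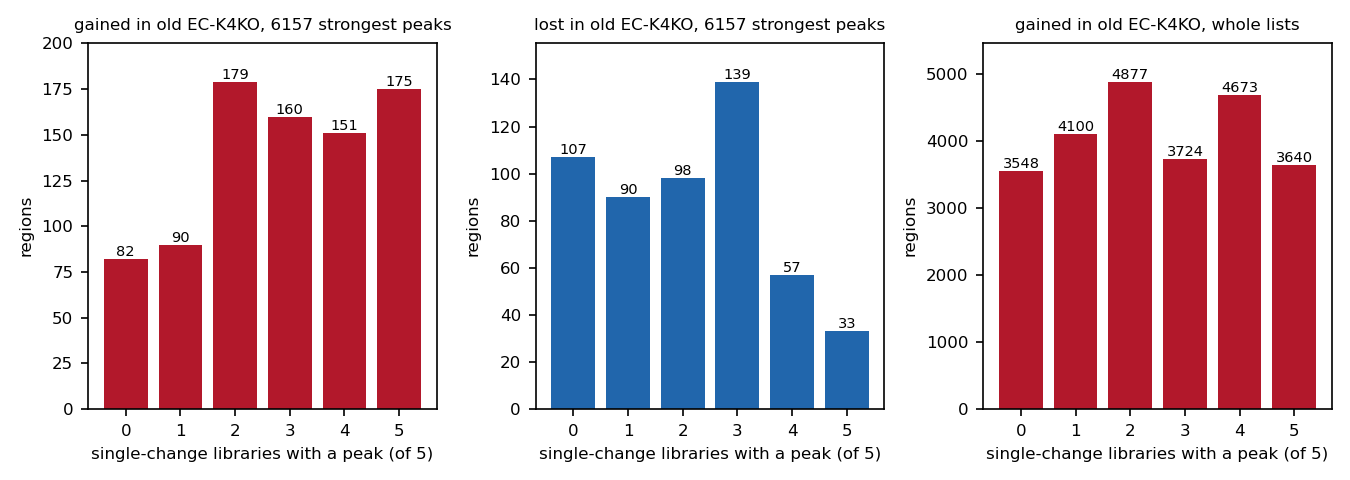
Number of gained and lost regions (y axis) by how many of the 5 single-change libraries had a peak there (x axis), at equal length (left and middle) and for gained regions in the whole lists (right). At equal length 82 gained and 107 lost regions had none, and 175 gained and 33 lost regions had a peak in all 5.

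The 82 gained regions with no equal-length peak in the single-change libraries were mostly distal. Of them 34 were intronic, 34 intergenic, 8 promoters and 6 exonic, and their median distance to a transcription start site was 25746.5 bp against 224 bp over all 10089 regions. Without old EC-K4KO replicate 1 the set numbered 191 and without replicate 2 it numbered 150. They were not absent from the whole single-change lists. Both whole old WT Cre lists had a peak in all 82, at median ranks of 7144 and 7822.5, and young EC-K4KO had one in 42, 80 and 79. In old EC-K4KO their median ranks were 5541.5 and 5187, so they lay just inside the cut there and just outside it in old WT Cre. With the whole lists as the standard, none of the 82 and none of the 107 was without a peak in the 5. The counterpart set, with a peak in both old WT Cre libraries and in none of the other 7 at equal length, had 54 regions.

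Among these 82, the region near Plekhg1 ranked 3984 and 3434 in old EC-K4KO, 6747 and 8581 in old WT Cre, and 13968 and 9671 in young EC-K4KO replicates 2 and 3 (chr10:3696742-3697735). Young EC-K4KO replicate 1 and both young WT Cre libraries had no peak there. The region near Hmgcll1 had a wider gap to old WT Cre, with ranks of 3768 and 4819 against 10681 and 11664.

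The SOX motif ACAATGG stood in the central 300 bp of 26 of these 82 regions (31.7%), against 410 of all 10089 regions (4.06%). All 26 lay outside promoters. Outside promoters the shares were 26 of 74 (35.1%) and 325 of 4788 (6.79%). Where 1 to 5 of the single-change libraries had the peak, the share among gained regions was 5.56, 6.70, 7.5, 3.97 and 3.43%, and among the lost regions with none it was 2.80%. Outside promoters those gained shares were 6.45, 9.6, 13.5, 9.62 and 8.51%. In the 54 regions found only in old WT Cre at equal length, the motif stood in 5 (9.26%). The 26 included 2 regions upstream of Tjp1, which encodes the tight-junction scaffold ZO-1, and introns of Jag1, a Notch ligand, and Tcf7l2, a Wnt effector. One lay near Edn1, the gene for endothelin-1. Whole old WT Cre lists had a peak in all 26, whole young EC-K4KO lists in all 3 libraries at 11, and a whole young WT Cre list at 2. The share moved with the processing, to 19.9% of 191 regions without old EC-K4KO replicate 1, 11.97% of 234 under fold ranking and 8.65% of 3548 in the whole lists, each above the share over all regions under the same setting. The whole-list share was not particular to regions with none. Where 1 to 5 of the 5 had the peak, whole-list gained regions held the motif in 7.46, 8.26, 7.87, 6.61 and 4.48%. This motif was singled out of the 12 after its values were seen, and its share among these 82 regions was not tested.

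**Figure D3:**
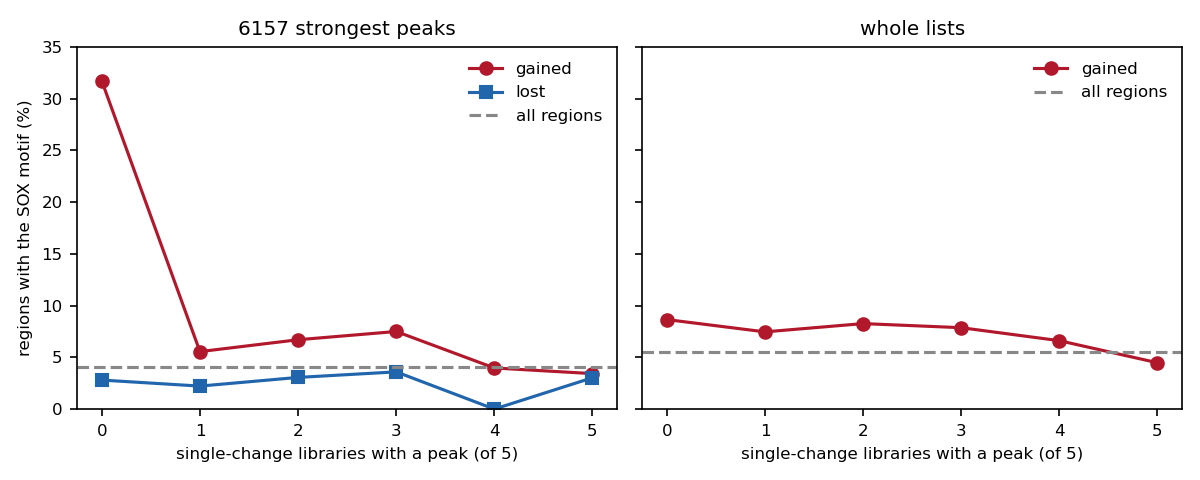
Percent of gained and lost regions (y axis) with the SOX motif in their central 300 bp, by how many of the 5 single-change libraries had a peak there (x axis), with the gained regions of the whole lists at the right and the share over all regions as a dashed line. The equal-length gained regions with none stand apart at 31.7%, against 3.43 to 7.5% for the other gained regions, which hold more promoters. In the whole lists those with none stand at 8.65%, against 4.48 to 8.26% for the other gained regions.

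Other motifs also differed in the same 82. KLF stood in 6.10%, NFY in 2.44%, GRE in 12.2% and AP-1 in 14.6%, against 20.3, 14.6, 5.17 and 8.76% of all regions. The 82 were 9.76% promoters with a mean GC content of 50.1%, against 52.5% and 61.1% for all regions. All whole-list regions, 10.2% of them promoters, held these 4 motifs in 11.3, 8.81, 9.22 and 11.2%. The part of promoter and GC content in these shares was not tested. Over all 837 gained regions ETS stood in 35.8% and KLF in 15.3%, against 30.6 and 20.3% of all regions. Over the 524 lost regions AP-1 stood in 12.2% and NFY in 5.92%. MEF2 stood in 5 of the 82 (6.10%), against 1.58% of all regions. The shares of CTCF, FOX, E-box, TEAD and NRF1 were 17.1, 6.10, 23.2, 17.1 and 3.66% of the 82, and 18.2, 3.95, 16.9, 11.6 and 4.203% of all regions. In the equal-length lists, where every peak counts, SOX stood in 4.50% and 4.29% of old EC-K4KO peaks and 3.43% and 3.49% of young WT Cre peaks, with 3.10 to 3.91% in the single-change libraries. These groups did not overlap, nor did 7 other motifs of the 12 (two-sided exact permutation p = 0.33, adjusted 0.5, n = 2 each). The KLF share was 21.1 and 20.7% in old EC-K4KO and 21.5 and 22.0% in young WT Cre. A match in these windows describes the letters and not a bound factor.

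The 107 lost regions with no equal-length peak in the single-change libraries stood nearer to genes, with 34 promoters, 34 introns, 26 intergenic regions and 13 exons. Without young WT Cre replicate 1 the set numbered 527 and without replicate 2 it numbered 1114. Their median ranks were 4608 and 4938 in young WT Cre and 10323.5 and 10231 in old EC-K4KO. The region inside an exon of Ctcf, for which the deposited annotation gives the start site of Rltpr as nearest (chr8:105663787-105665018), ranked 3132 and 1 in young WT Cre and 8126, 9578 and 13557 in young EC-K4KO. None of the 4 old libraries had a peak there. It is the top peak of young WT Cre replicate 2 by -log10 p at a fold enrichment of only 5.66.

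In the whole lists 24562 regions (26.6% of 92495) were gained and 4 (0.00432%) were lost, beside mean list lengths of 42052.5 and 7877.5 peaks. Of the gained regions 13240 (53.9%) had a peak in both single-change groups, 6935 (28.2%) in old WT Cre alone and 839 (3.42%) in young EC-K4KO alone. A further 3548 (14.4%) had no peak in any of the 5. These 3548 were weak and distal, with 50.8% intronic, 39.7% intergenic and 3.07% promoter regions, and the median over regions of their mean rank in old EC-K4KO was 30627.5. Their median fold enrichment in old EC-K4KO was 3.89, against 7.51 for gained regions found in all 5 and 9.71 for regions shared by all 4 libraries.

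The highest-ranked of these 3548 lay in an intron of Alad, a haem-synthesis gene, at ranks 10818 and 10379 (chr4:62516160-62516378). The next lay in an intron of Eef2kmt, a lysine methyltransferase gene, at ranks 10506 and 11146 (chr16:5254415-5254582). None ranked higher than 10379 in either old EC-K4KO library. On the other old EC-K4KO library alone, the set numbered 7709 without replicate 1 and 11953 without replicate 2. The promoter region of Sepn1 ranked 13947 and 15723, and the region near Mapre3, a microtubule end-binding gene, 14779 and 15223 with fold enrichments of 8.47 and 8.09. When every list but those of young WT Cre was cut to 23848 peaks, the shortest of the 7, 13044 regions were gained and 541 (4.15%) had no peak in the 5. Old WT Cre alone then held 462, so at that length the set found only in old EC-K4KO and the set found only in old WT Cre were of similar size. Uncut, the whole lists gave 316 regions found only in old WT Cre, against the 3548. The 4 lost regions were the one in the Ctcf exon, the promoter of Gm13283 and 2 regions near Gm38415, and each had a peak in 1 or more single-change libraries. Without young WT Cre replicate 1 or 2 the whole-list losses numbered 1412 and 552.

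A separate view came from the 4914 whole-list regions in which all 4 libraries had a peak. Each was given its percentile among these regions in each library, with 100 the highest -log10 p, and 581 (11.8%) stood at least 20 points higher in old EC-K4KO than in young WT Cre by the group means, with no overlap of the groups, while 580 (11.8%) stood at least 20 points lower. The median shift over all 4914 was 0.0916 points. For the higher set the median percentiles were 32.1 and 32.95 in young WT Cre, 44.3, 49.3 and 49.7 in young EC-K4KO, 59.4 and 59.7 in old WT Cre, and 63.5 and 65.9 in old EC-K4KO. For the lower set they were 62.7 and 59.0, 48.6, 42.8 and 43.2, 30.9 and 31.2, and 26.8 and 26.6. Both sets were chosen for the gap between old EC-K4KO and young WT Cre, so only the values of the single-change libraries are free of the choice. Against a median of 50 over all these regions, those of old WT Cre lay on the old EC-K4KO side in both sets. Those of young EC-K4KO lay at or below 50 in both, which is the old EC-K4KO side in the lower set only. They lay between the young WT Cre and old WT Cre values in both sets.

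The promoter of Cks2, which encodes a cyclin-dependent kinase subunit, had the largest gap upward, with percentiles of 10.8 and 16.3 in young WT Cre and 84.6 and 81.1 in old EC-K4KO. An intergenic region near Flt1, the gene for VEGF receptor 1, stood at 7.06 and 44.5 in young WT Cre, 60.4, 42.9 and 60.2 in young EC-K4KO, 84.7 and 87.6 in old WT Cre, and 86.3 and 92.3 in old EC-K4KO. The 2 young WT Cre values at Flt1 lay far apart, yet both were below every old value. A region near Vwf, the gene for von Willebrand factor, stood at 37.8 and 33.5 against 79.7 and 73.6, and the promoter of Slco1c1, a brain EC thyroid hormone transporter gene, at 27.1 and 42.3 against 67.6 and 78.4. Usp9x had the largest gap downward, from 89.6 and 85.3 to 10.6 and 10.2. At the promoter of Cldn5, the claudin of the blood-brain barrier, the percentiles were 88.8 and 72.0 in young WT Cre, 58.7, 39.98 and 45.6 in young EC-K4KO, 36.9 and 28.6 in old WT Cre, and 33.6 and 36.7 in old EC-K4KO. At Cldn5 the old libraries of both genotypes overlapped.

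Old EC-K4KO peaks were wider in each set. The median peak width of the lower set was 945.5 bp in old EC-K4KO and 464.5 bp in young WT Cre, and of the higher set 618 and 337.5 bp, against 746 and 412.75 bp over all 4914. At equal length the median ratio of old EC-K4KO to young WT Cre width was 2.06 over 522 lost regions, 2.04 over the 194 gained regions with a young WT Cre peak in the whole lists, and 1.66 over regions shared by all 4. The lost regions measured 355 and 430 bp in young WT Cre and 911.5 and 891 bp in old EC-K4KO. The peak caller averages -log10 p over a broad peak, and the part of width in these ranks was not tested. Ranked by fold enrichment instead, 467 of the 581 and 436 of the 580 were found again, and 1 and 2 took the opposite direction. Of the equal-length gained and lost regions 610 of 837 and 393 of 524 were found again by fold, and none took the opposite direction.

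**Figure D4:**
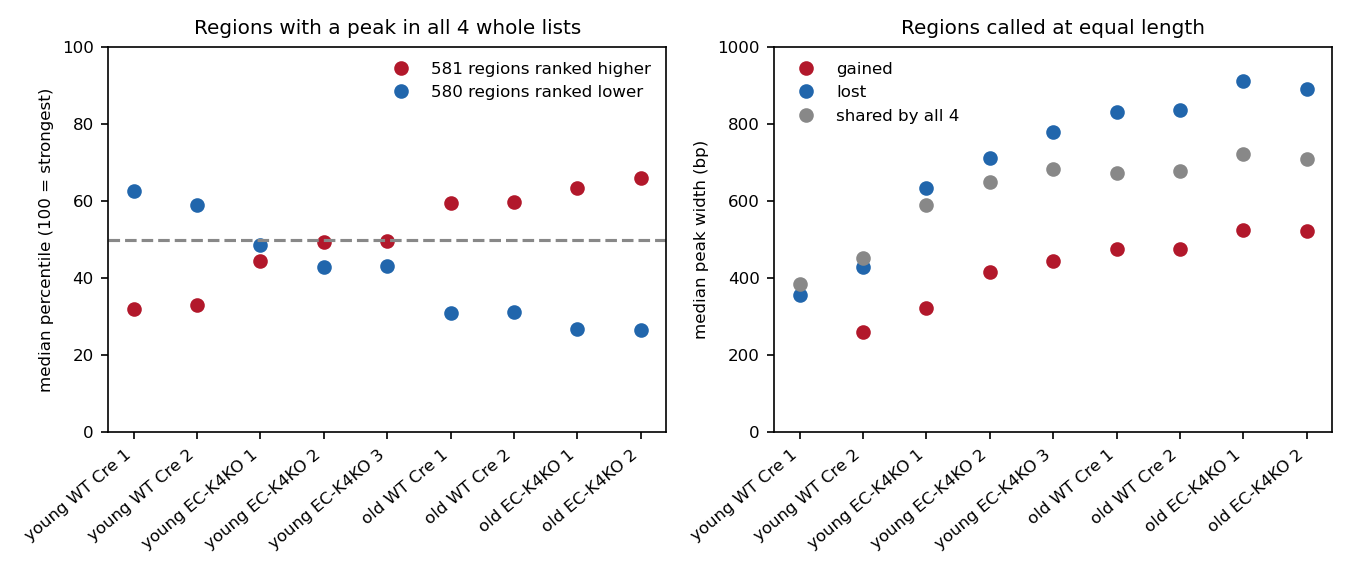
Median percentile of -log10 p (left, y axis) in each of the 9 libraries for the 581 regions that stood higher and the 580 that stood lower in old EC-K4KO, and median peak width in bp (right, y axis) of gained, lost and shared equal-length regions. Old WT Cre lies on the same side of 50 as old EC-K4KO in both sets, and gained, lost and shared regions all have wider peaks in old EC-K4KO (median width ratios 2.04, 2.06 and 1.66).

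At gene promoters, 501 of 6039 genes (8.3%) with an equal-length promoter peak gained one and 310 (5.13%) lost one (753 lost without young WT Cre replicate 1, and 1029 gained and 709 lost without replicate 2). Whole lists had 3375 of 11168 (30.2%) gained and 162 (1.45%) lost. A promoter here is a peak that carries the gene's promoter label in its own library's annotation. Only 4 whole-list regions were lost, 1 of them a promoter. A promoter counted as lost can therefore still lie under an old EC-K4KO peak with another label. Of 17 endothelial identity genes with an equal-length promoter peak in any library, Robo4, an endothelial guidance receptor gene, was gained and Eng, which encodes the TGF-beta co-receptor endoglin, was lost, and 8 had a peak in all 4 libraries. None of 13 barrier and transport genes was gained and 3 were lost, namely Slc16a1 (the lactate transporter MCT1), Abcc4 (an efflux pump) and Lrp1 (an endocytic receptor). No lost region of either kind of list had Slc16a1 as its nearest gene, so its loss appears only in the promoter labels. In the whole lists 7 of 23 endothelial genes were gained (Pecam1, Tek, Fli1, Robo4, Sox18, Vwf and Icam2) and none lost. Of 19 barrier genes 7 were gained, among them Ocln and Tjp1 of tight junctions and Mfsd2a, a lipid transporter gene, and Slc16a1 was lost. Both shares, 30.4% and 36.8%, were close to the 30.2% over all genes. The gain at Tjp1 follows the promoter label. A Tjp1 region annotated as exon, 127 bp from the start site, had peaks in both young WT Cre libraries, at ranks 4101 and 1514. That region ranked 7832 and 6593 in old EC-K4KO and was lost at equal length.

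Of the KLF and SP factors, the family of Klf4, no promoter was gained or lost in either kind of list, and 10 of 15 had an equal-length peak in all 4 libraries. Of 18 immediate early genes Egr3 was gained and Atf3, Ier5 and Nr4a3 were lost. Fkbp5 was the 1 gained promoter among 19 glucocorticoid and clock genes. Of 16 interferon and antigen presentation genes B2m was lost, and Ifi27 was among the gained. In the TGF-beta and BMP pathway Smad7, an inhibitor, and Id3, a target, were lost of 17. In the Wnt pathway the effector gene Tcf7l1 and the receptor gene Fzd7 were gained and the effector gene Tcf7l2 lost of 13, and in the Notch pathway the receptor gene Notch1 and the target Hey1 were lost of 15. Ppp1r15a and Sirt1 were lost of 15 stress and senescence genes, none of 8 inflammation and adhesion genes differed, and Rplp0 and B2m were lost of 9 housekeeping genes. These counts of 0 to 3 rest on few genes each. Ier5, B2m, Id3, Ppp1r15a and Rplp0 were not the nearest gene of any lost region, so their losses appear only in the promoter labels. The lost region nearest to Atf3 was intergenic. In the whole lists 2 of 19 immediate early, 3 of 22 glucocorticoid and clock, 5 of 15 inflammation, 5 of 22 interferon, 5 of 20 stress, 6 of 22 TGF-beta and BMP, 5 of 19 Wnt, 2 of 18 Notch and 1 of 10 housekeeping promoters were gained. The shares over all genes were 30.2% gained and 1.45% lost there, and 8.3% and 5.13% at equal length, so most of these lists lay near or below the share of all genes gained. At most 2 promoters of any of these lists were lost in the whole lists.

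Counted over all regions nearest to list genes rather than promoters, the whole-list shares gained were 48.9% of 329 for endothelial identity genes, 46.8% of 94 for interferon genes, 46.2% of 266 for barrier genes and 44.5% of 236 for Wnt genes. They were 43.3% of 150 for inflammation genes, 42.1% of 278 for TGF-beta and BMP genes, 41.4% of 152 for stress genes, 40.7% of 140 for glucocorticoid and clock genes, 34.7% of 222 for Notch genes and 34.4% of 180 for immediate early genes. They were 34.3% of 198 for KLF and SP factors and 33.3% of 51 for housekeeping genes, against 26.6% over all regions. Among markers of other cells the shares were 35.5% of 93 for astrocyte, 26.6% of 64 for mural, 23.8% of 63 for neuron, 17.6% of 51 for oligodendrocyte, 16.3% of 49 for fibroblast and 8.93% of 56 for microglia and macrophage genes. Of the regions near barrier genes 7 of 50 (14%) were gained at equal length, against 8.3% of all regions, and 4 (8%) had no peak in the single-change libraries, against 0.813%. Losses were also frequent there, with 6 of the 50 (12%) against 5.19% of all regions. Of these, 3 had no peak in the single-change libraries, against 107 of all 10089 regions. Among regions shared by all 4 libraries, those near endothelial genes went both ways, with 5 of 36 higher and 5 lower by 20 percentile points, near the 11.8% of all shared regions in each direction. For immediate early genes none of 39 stood higher and 7 stood lower, and the median shift was -4.17 points. Housekeeping genes had a median shift of -5.62, with none of 14 higher and 2 lower. It was -5.67 for KLF and SP, -7.06 for glucocorticoid and clock, -7.69 for stress and -10.1 for inflammation genes. Barrier genes had -10.2, TGF-beta and BMP genes -11.2 and Wnt genes -3.08. It was positive for endothelial (3.35), Notch (1.79) and interferon (1.05) genes. For KLF and SP factors 2 of 26 stood higher and 7 lower. The 2 higher regions both lay near Klf4, at 17489 bp and -72601 bp from its start, and the lower ones lay near Klf9, Klf11, Klf16, Klf10, Klf3, Klf2 and Klf6. At Klf2, whose product shares many EC targets with KLF4, an intergenic region stood at 45.4 and 18.4 in young WT Cre, 41.8, 13.9 and 6.74 in young EC-K4KO, 6.11 and 2.34 in old WT Cre, and 1.99 and 4.89 in old EC-K4KO. There the old libraries again overlapped between genotypes.

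**Figure D5:**
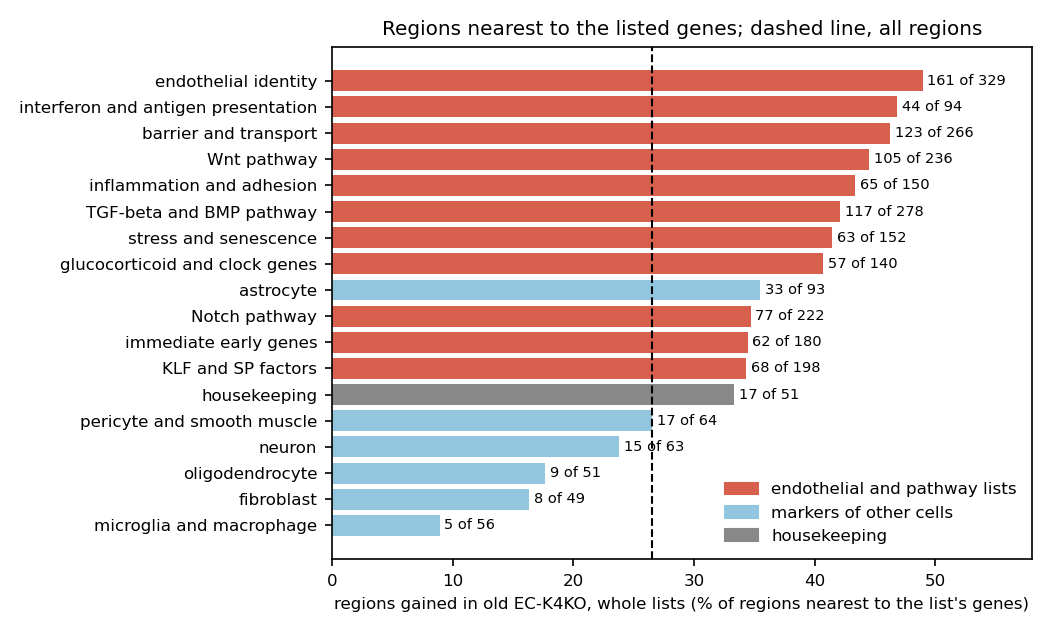
Percent of the whole-list regions nearest to the genes of each list that were gained (x axis), by gene list, with the share over all regions as a dashed line. The leukocyte and erythroid lists, with 12 and 18 regions, are not drawn. Endothelial identity regions reach 48.9%, and lists of other cells run from 8.93% (microglia and macrophage) to 35.5% (astrocyte), with all regions at 26.6%.

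The endothelial label was checked against promoters of other cell types. At equal length no library had a promoter peak at any gene of the mural, fibroblast, microglia, astrocyte, oligodendrocyte, neuron, leukocyte or erythroid lists, while 9 to 14 of 25 endothelial genes had one in each library. In the whole lists the pericyte and smooth muscle genes with a promoter peak numbered 0 and 0 in young WT Cre, none in young EC-K4KO, 1 and 4 in old WT Cre, and 7 and 4 of 17 in old EC-K4KO. Astrocyte genes numbered 0 and 1 against 4 and 3 of 15, neuron genes 0 and 0 against 4 and 4 of 17, and oligodendrocyte genes 0 and 0 against 3 and 2 of 15. Fibroblast and erythroid genes numbered 0 in young WT Cre and 1 in each old EC-K4KO library, and leukocyte genes 0 in all 4. Over all 9 whole lists, 8 of 17 mural genes (among them Pdgfrb, Acta2 and Tagln), 8 of 15 astrocyte genes, 5 of 17 neuron genes, 4 of 15 oligodendrocyte genes and none of 17 microglia and macrophage genes had a promoter peak in any library. Rgs5 and Anpep of mural cells, Gfap and Aqp4 of astrocytes and Rbfox3 of neurons were among those with none. Whole old EC-K4KO lists held promoter peaks at 8468 and 8279 genes of any kind, against 3399 and 4479 in young WT Cre. The part of these cells in the gained regions was not tested. More cells of a type, more open chromatin per cell and longer lists cannot be told apart here.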

How the data were processed

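Omni-ATAC-seq peak lists of 9 libraries were used as deposited, 1 list per library and none pooled. Per the methods and labels, the authors aligned reads to mm10 (GRCm38) with Bowtie2, removed duplicates and called broad peaks with MACS2, with no control library named. The deposited values are the fold enrichment (a linear ratio), the -log10 p-value and the -log10 q-value, each averaged over a peak, a score that is 10 times -log10 q to within 1, and the annotation with nearest gene and distance to the start site. No read counts were used, so depth, and any error from it, is unknown.

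Peaks overlapping by 1 bp were merged. Lists were cut to 6157 peaks by -log10 p or kept whole. Replicates are libraries that the labels number within a group. List measures and motif shares were compared with two-sided exact permutation tests and Benjamini-Hochberg adjustment, and no region was tested singly. Named regions were the 10 highest-ranked of each kind (by the mean rank of the libraries that hold them), the 10 largest percentile shifts, and those near list genes. Members and the 20 gene lists (386 genes, all in GENCODE M21) were chosen with earlier results of these data known. Alternatives changed the ranking, length, overlap, q limit and libraries used. Steps were tested on simulated lists. Some named regions and genes are not reported here. The software was Python 3.11.15 with scipy 1.17.1, pandas 2.3.3 and numpy 2.4.6, and plots were drawn with matplotlib 3.10.9.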

Additional observations from a re-analysis of the deposited data

How the results depend on the processing

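Peak lists without read counts limit the comparison to presence, rank and enrichment, and 2 libraries a group allow no p under 0.33. Counts of changed regions moved with most choices and the libraries used. Requiring peaks to cover 50% of a region gave 2491 gained and 218 lost regions at equal length and 0 lost in the whole lists. Ranking by fold enrichment gave 1577 gained and 1398 lost, 234 gained with no peak in the single-change libraries, percentile shifts of 1088 higher and 1135 lower, and 731 promoter genes lost. Lists of 3000 gave 380 gained, 313 lost, and 48 and 60 with no peak in the 5. A -log10 q over 2 left 2 whole-list losses, a cut to the shortest of the 7 other lists 541 regions only in old EC-K4KO, and asking for no peak in whole lists 0 and 0 regions with none in the 5 and 2 lost.

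Leaving out 1 library gave 1066 to 1621 gained and 620 to 1780 lost at equal length, 25228 to 35879 gained and 4 to 1412 lost in the whole lists, 90 to 191 gained and 107 to 1114 lost with no peak in the 5, 3550 to 11953 of these in the whole lists, and 667 to 1029 promoter genes gained and 390 to 753 lost. Leaving out a library removes a condition of the call, so these counts could only rise or stay the same. The gains absent from the 5 rose most without an old EC-K4KO library, and the losses rose most without a young WT Cre library. The promoter share difference ran from 1.09 to 6.89 percentage points, lowest without young WT Cre replicate 1, was 11.7 for peaks over a GENCODE start site, and its direction held under every alternative run. With replicate number as a block the differences stayed at 34175 peaks and 3.99 percentage points (exact permutation p = 0.5, the smallest a block of 2 pairs allows). The labels do not tie the numbers to a shared animal or batch. The SOX share, an alternative set chosen after seeing the data, was 19.9% without old EC-K4KO replicate 1, 11.97% by fold, 14.6% at 3000, 9.80% with lists cut to 23848 and 8.65% in the whole lists.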

Other observations

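The 3548 regions found in both old EC-K4KO libraries and in no other whole list were spread over 2843 nearest genes, of which 2300 had 1 such region. Irf2bp2, which encodes a transcriptional co-regulator, was nearest to 7 of them (of 25 regions in all) and Epas1, the gene for the hypoxia-inducible factor HIF-2 alpha of ECs, to 6 of 38. Another 8 genes had 5 each, among them Lef1, a Wnt effector, Tgfbr2, a TGF-beta receptor, Etv6, an ETS factor, Camta1, Utrn and Zfp608. These genes are described with no test, and genes with many regions in all have more chances to hold such a region.

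The promoters of Ackr1, the venular chemokine receptor gene, Tagln and Gja1 had a peak in both old EC-K4KO libraries and in none of the other 7 whole lists, as did that of Tubb3. Of 11168 genes with a whole-list promoter peak, 118 had this pattern. The 4 named peaks ranked low, at 36712 and 27807 (Ackr1), 25934 and 35773 (Tagln), 20111 and 24276 (Gja1), and 37952 and 27529 (Tubb3). Their fold enrichments were 3.24 to 4.59.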
